A study of Mus musculus with 12 samples.

Results

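The eicosanoid synthesis genes are 10 mouse genes whose products release arachidonic acid from membranes and turn it into prostaglandins, thromboxane and leukotrienes: Pla2g4a, Ptgs1, Ptgs2, Hpgds, Tbxas1, Ptges, Alox5, Alox5ap, Lta4h and Alox15. They were chosen by name by matching the Ensembl identifiers of the count tables to mouse gene symbols, and make up 10 of the 56941 genes counted. All 10 were found, each under 1 identifier. Their levels were followed in bone-marrow-derived macrophages of wild type (WT) and miR-210 knock-out (KO) mice of the C57BL/6J strain, 3 libraries in each of 4 groups. M0 macrophages were monocytes of WT or miR-210 KO marrow grown for 7 days in medium conditioned by L929 fibroblasts, which supplies M-CSF. M2 macrophages received 20 ng/mL IL-4 for a further 72 hours, and the M0 wells were kept without it. The KO allele was made with a Gata-1 Cre and bred through heterozygous mice, so that KO and WT animals came from matings of heterozygotes and the deletion is not limited to macrophages. The sources used here give no age of the animals at marrow harvest and do not state whether the 3 cultures of a group came from separate mice, so that the p-values measure the spread between these cultures, which may be partly technical.

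Eicosanoid synthesis begins when cytosolic phospholipase A2, the product of Pla2g4a, frees arachidonic acid from phospholipids. The cyclooxygenases COX-1 (Ptgs1) and COX-2 (Ptgs2) convert it to prostaglandin H2, from which terminal synthases make prostaglandin D2 (Hpgds), thromboxane A2 (Tbxas1) or prostaglandin E2 (Ptges). In the other arm, 5-lipoxygenase (Alox5) works with its activating protein FLAP (Alox5ap) to make leukotriene A4, which leukotriene A4 hydrolase (Lta4h) converts to the neutrophil attractant leukotriene B4, and Alox15 encodes the 12/15-lipoxygenase. Macrophages are a major source of these lipids, and COX-1 is usually described as the constitutive and COX-2 as the inducible enzyme.

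The libraries held between 7930525 and 10167695 counts, and the 10 genes together took between 0.0758% and 0.102% of them. Mir210, the deleted gene, had between 1 and 5 counts in each of the 6 WT libraries and 0 in each of the 6 KO libraries. The 7 macrophage markers were expressed in every group, while the 8 markers of mast cells and basophils, cells known for prostaglandin D2 and leukotriene synthesis, had at most 3 counts in any group's libraries. The IL-4 response genes Retnla and Chil3 had at most 3 counts in any M0 library and between 2161 and 17127 in the M2 libraries. Arg1, a further IL-4 response gene, rose in M2 by 5.53 on the log2 scale in WT and 4.71 in miR-210 KO, and it already differed between the genotypes in M0, by 0.85 in favour of miR-210 KO (adjusted p = 0.034, edgeR). The labels give each group its own batch, so that batch and group cannot be told apart in any comparison below.

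The mature strand of the deleted microRNA is shown because a match to its seed, bases 2 to 8 in capitals, is the usual mark of a direct target.
mmu-miR-210-3p (RefSeq, GRCm38.p6, chr7:141221407-141221428, minus strand): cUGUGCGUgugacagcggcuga
The complement of the seed, ACGCACA, was searched in the 3' UTR of the canonical transcript of each gene on GRCm39. It occurred in 0 of the 10 eicosanoid synthesis genes and in 726 of 20672 protein-coding genes (3.51%), so that the set holds no gene with these letters in that window.

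Promoters are shown for the gene with the largest rise with IL-4, the gene with the largest fall, and the 2 genes that hold TTC and GAA with 4 bases between them, the spacing preferred by STAT6, the transcription factor that IL-4 activates. RefSeq promoters (GRCm38.p6, from 250 bases before to 50 after the gene start) were found for 8 of the 10 genes, while Alox5ap and Alox15 had no entry. Both strands were searched, and either spacing reads the same on both. Capitals mark a match.
Ptgs1, chr2:36230176-36230475, plus strand: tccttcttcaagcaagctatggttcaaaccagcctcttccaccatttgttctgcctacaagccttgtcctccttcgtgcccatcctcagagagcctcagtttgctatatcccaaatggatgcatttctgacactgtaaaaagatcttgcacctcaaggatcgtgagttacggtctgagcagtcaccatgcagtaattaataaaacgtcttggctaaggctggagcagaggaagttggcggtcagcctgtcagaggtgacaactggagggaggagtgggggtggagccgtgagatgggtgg
Hpgds, chr6:65144681-65144980, minus strand: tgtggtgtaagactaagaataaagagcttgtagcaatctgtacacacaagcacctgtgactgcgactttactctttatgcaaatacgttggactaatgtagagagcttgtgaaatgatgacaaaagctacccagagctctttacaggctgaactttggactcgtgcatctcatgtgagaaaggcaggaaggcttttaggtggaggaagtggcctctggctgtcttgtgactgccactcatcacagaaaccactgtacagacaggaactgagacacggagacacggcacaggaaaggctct
Tbxas1, chr6:38918736-38919035, plus strand: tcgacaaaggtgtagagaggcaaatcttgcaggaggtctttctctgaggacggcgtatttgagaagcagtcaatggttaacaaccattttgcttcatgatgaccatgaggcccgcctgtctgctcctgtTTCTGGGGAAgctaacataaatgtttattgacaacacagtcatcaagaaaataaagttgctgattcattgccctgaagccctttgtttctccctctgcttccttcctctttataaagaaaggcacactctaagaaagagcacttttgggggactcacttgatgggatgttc
Ptges, chr2:30903248-30903547, minus strand: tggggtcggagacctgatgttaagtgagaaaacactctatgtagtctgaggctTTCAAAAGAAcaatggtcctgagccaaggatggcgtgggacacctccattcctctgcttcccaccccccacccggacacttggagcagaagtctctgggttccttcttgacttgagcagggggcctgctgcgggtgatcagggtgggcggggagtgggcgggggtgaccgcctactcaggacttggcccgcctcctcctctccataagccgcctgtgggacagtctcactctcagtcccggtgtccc
The match began at position -121 in Tbxas1 and at -197 in Ptges, and 6.95% of 32851 promoters hold these letters. The shorter spacing of 3 bases (TTCNNNGAA), found in 8.3% of all promoters, was in none of the 8 genes. Ptgs1 and Hpgds, the genes with the largest changes described below, held neither in this window.

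Most of the set differed between M0 and M2 macrophages. Levels are given as TMM-scaled CPM, counts per 1000000 of the library. Of the 9 genes with enough counts for a test, WT M2 differed from WT M0 in 6, 4 higher and 2 lower, where 43% of the 14266 genes tested were called (22.1% higher and 20.9% lower). In miR-210 KO 6 of 9 were also called, 3 higher and 3 lower, beside 33.8% of 14331 genes (17.4% higher and 16.4% lower). Called means an adjusted p under 0.05 with a change of over 1.2-fold in edgeR's quasi-likelihood test. Ptgs1, Tbxas1 and Lta4h rose and Hpgds and Alox5ap fell in both genotypes. Ptgs2 passed as a rise in WT and Ptges as a fall in miR-210 KO, and the difference between the genotypes is tested further on. M0 and M2 did not overlap for 8 of the 9 genes in WT and for 6 in miR-210 KO, beside 57% and 46.3% of all genes tested. The median log2 fold change was 0.48 over the 9 genes in WT and -0.08 in miR-210 KO, beside medians over all genes tested of 0.00 and -0.01. Each median of 9 is the value of 1 gene, Tbxas1 in WT and the low-count Ptgs2 in miR-210 KO. The median of the differences between the responses was -0.10, and none of the 9 passed that test. In bulk RNA, fewer cells that express a gene and less of its RNA per cell cannot be told apart.

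**Figure D1:**
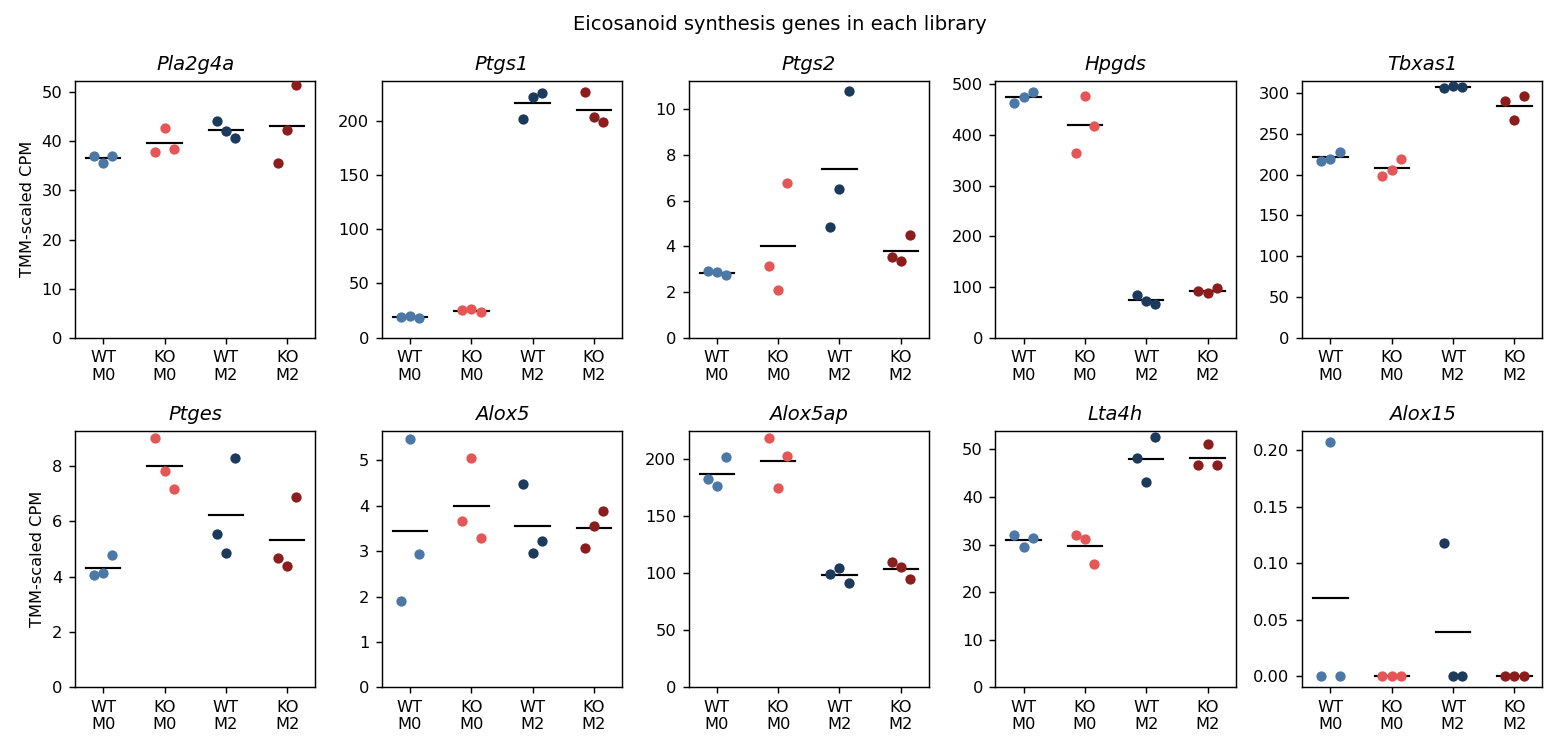
Level of each eicosanoid synthesis gene, in TMM-scaled CPM on a linear axis with its own range per gene, in the 3 libraries of each group. Points are libraries and bars are group means. Ptgs1 sits between 17.9 and 26 CPM in the M0 libraries and between 199 and 226 in the M2 libraries, Hpgds shows the opposite order, and Alox15 is at or near 0.

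Pla2g4a (GRCm39 chr1:149705369-149837053, minus strand), which frees arachidonic acid, changed little. It stood at 37.1, 35.6 and 37 CPM in WT M0, 37.9, 42.8 and 38.5 in KO M0, 44.2, 42.2 and 40.6 in WT M2 and 35.5, 42.4 and 51.5 in KO M2. The 3 WT M2 libraries lay above the 3 WT M0 libraries, and the KO groups overlapped. The log2 fold change with IL-4 was 0.22 (95% interval 0.05 to 0.38) in WT, which is under the fold limit although its adjusted p was 0.031, and 0.12 (-0.15 to 0.39) in miR-210 KO. Between the genotypes the intervals were -0.08 to 0.32 in M0 and -0.20 to 0.26 in M2.

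Ptgs1 (chr2:36120438-36142287, plus strand), the gene of COX-1, showed the largest change of the set. In WT its levels were 19.2, 20.1 and 17.9 CPM before and 201, 222 and 225 after IL-4. In miR-210 KO they were 25.1, 26 and 23.4 CPM in M0 and 226, 203 and 199 in M2. Every M2 library was far above every M0 library, and the M2 groups of the 2 genotypes overlapped. The rise was 11.4-fold in WT (log2 3.51, SE 0.08, adjusted p = 1.9e-12) and 8.44-fold in miR-210 KO (log2 3.08, SE 0.09, adjusted p = 1.1e-10). The interval of the WT rise (3.33 to 3.68) lay above that of Ptgs2 (0.76 to 1.97), the isoform usually called inducible. In M0 all 3 KO libraries lay above all 3 WT libraries, with a log2 difference of 0.38 (95% interval 0.15 to 0.61, adjusted p = 0.19), which did not pass the test.

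Among the genes whose pattern over the 12 libraries was most like that of Ptgs1, by the root mean square difference of centred log2 CPM over 14824 genes, were Slc30a4 (0.156), Sqle (0.161), Camk2a (0.184) and Plekhf1 (0.19). Sqle encodes squalene epoxidase, an enzyme of cholesterol synthesis.

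Ptgs2 (chr1:149975194-149983978, plus strand), the gene of COX-2, was one of the lowest members, with between 22 and 87 counts in a library. In WT it stood at 2.92, 2.89 and 2.74 CPM with no IL-4 and at 4.83, 6.53 and 10.8 with it. In miR-210 KO the levels were 3.12, 2.09 and 6.77 CPM in M0 and 3.55, 3.35 and 4.51 in M2. The WT groups did not overlap, while in miR-210 KO the third M0 library alone exceeded all M2 libraries (libraries are numbered as in the count tables). In WT Ptgs2 rose 2.57-fold with IL-4 (log2 1.36, SE 0.28, adjusted p = 0.0012). In miR-210 KO the log2 fold change was -0.08 (95% interval -0.88 to 0.72), and without the third KO M0 library it was 0.54 (adjusted p = 0.19).

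In M2 the 3 KO libraries lay below the 3 WT libraries for Ptgs2, with a log2 difference of -0.95 (95% interval -1.50 to -0.39, unadjusted p = 0.0025, adjusted p = 0.12). This did not pass the test, and it was -0.59 without the third WT M2 library and -1.17 (adjusted p = 0.041) without the first. In M0 the difference was 0.49 (-0.35 to 1.32), and -0.14 without the third KO M0 library. S100a8, a neutrophil marker, had between 5 and 33 counts in a library. It stood at 2.48, 3.48 and 3.59 CPM in WT M2 against 1.23, 1.78 and 1.13 in KO M2 (log2 -1.17, adjusted p = 0.06). In M0 the S100a8 difference was positive (log2 1.03), as was that of Ptgs2 (0.49), and neither passed. Of the 8 neutrophil markers, 5 had at most 3 counts in any WT M2 library and 7 in any KO M2 library. Among them Ly6g had 0 counts in all 12 libraries. The part of S100a8 in the Ptgs2 values was not tested.

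Hpgds (chr6:65094001-65121983, minus strand), the hematopoietic prostaglandin D synthase, showed the largest fall. WT libraries held 463, 474 and 485 CPM without IL-4 and 84.2, 73.3 and 66 with it. The KO libraries held 365, 476 and 418 CPM in M0 and 91.3, 87.2 and 98.8 in M2. All M2 libraries were below all M0 libraries. The fall was 6.33-fold in WT (log2 -2.66, SE 0.08, adjusted p = 3.8e-11) and 4.54-fold in miR-210 KO (log2 -2.18, SE 0.10, adjusted p = 5.7e-09). Hpgds took 48.4% ± 0.512 (SD, n = 3) of the set's counts in WT M0 and 9.27% ± 1.19 in WT M2, while the share of Ptgs1 went from 1.95% ± 0.163 to 26.9% ± 1.46. In M2 the KO libraries all lay above the WT libraries (log2 0.31, 95% interval 0.13 to 0.49, adjusted p = 0.11), a difference that did not pass the test and that passed it without the first WT M2 library (0.41, adjusted p = 0.041). In M0 the genotypes overlapped.

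Tbxas1 (chr6:38852203-39061523, plus strand), thromboxane A synthase, rose moderately. Its levels were 217, 219 and 227 CPM in WT M0, 306, 309 and 307 in WT M2, 198, 206 and 219 in KO M0 and 290, 267 and 296 in KO M2. The M2 libraries were above the M0 libraries in each genotype, and the replicates were close together. The rise was 1.4-fold in WT (log2 0.48, SE 0.06, adjusted p = 1.3e-05) and 1.37-fold in miR-210 KO (log2 0.45, SE 0.08, adjusted p = 0.00049). In M2 all KO libraries lay below all WT libraries by a log2 difference of -0.11 (95% interval -0.23 to 0.01), which did not pass. Hipk2 lies on the opposite strand over part of the gene, and the counting was by strand.

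Ptges (chr2:30779483-30820196, minus strand), the inducible prostaglandin E synthase, was low in all groups, with between 32 and 82 counts in a library. Other prostaglandin E synthase genes stood higher, Ptges2 at between 12.1 and 24.4 CPM and Ptges3 at between 118 and 139. WT libraries held 4.07, 4.13 and 4.77 CPM in M0 and 5.54, 4.85 and 8.29 in M2. KO libraries held 9.02, 7.8 and 7.17 CPM in M0 and 4.66, 4.39 and 6.89 in M2. Every WT M2 library was above every WT M0 library, and every KO M2 library was below every KO M0 library. The log2 fold change with IL-4 was 0.51 (95% interval 0.04 to 0.99, adjusted p = 0.071) in WT, which did not pass and was 0.27 without the third WT M2 library, and -0.59 (-1.05 to -0.14, adjusted p = 0.043) in miR-210 KO, which did. The KO call was lost with the DESeq2 Wald test and when 4 of the 6 libraries were left out in turn, with adjusted p between 0.055 and 0.17.

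In M0 Ptges was 1.84-fold higher in miR-210 KO than in WT with no overlap (log2 0.88, 95% interval 0.47 to 1.29). The unadjusted p was 0.00064 and the adjusted p 0.081, so that it did not pass. In M2 the groups overlapped (log2 -0.22, 95% interval -0.71 to 0.27). Arg1 was also higher in the KO M0 libraries (73, 63 and 84.9 CPM against 50.7, 38 and 34.5). The summed fibroblast markers were higher in KO M0 too (between 1.78 and 2.29 CPM against 0.89 and 1.24). This sum rests on few counts, at most 16 in a library for Col1a2. None of the 5 markers had enough counts for a test in M0, and each overlapped between the genotypes. The part of Arg1 and of these markers in the Ptges difference was not tested. The genes most like Ptges over the 12 libraries were Lox (0.167), Acot1 (0.178), Rhbdf1 (0.193), Txnrd1 (0.201) and Cntf (0.235), in the same measure and among the same 14824 genes.

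**Figure D2:**
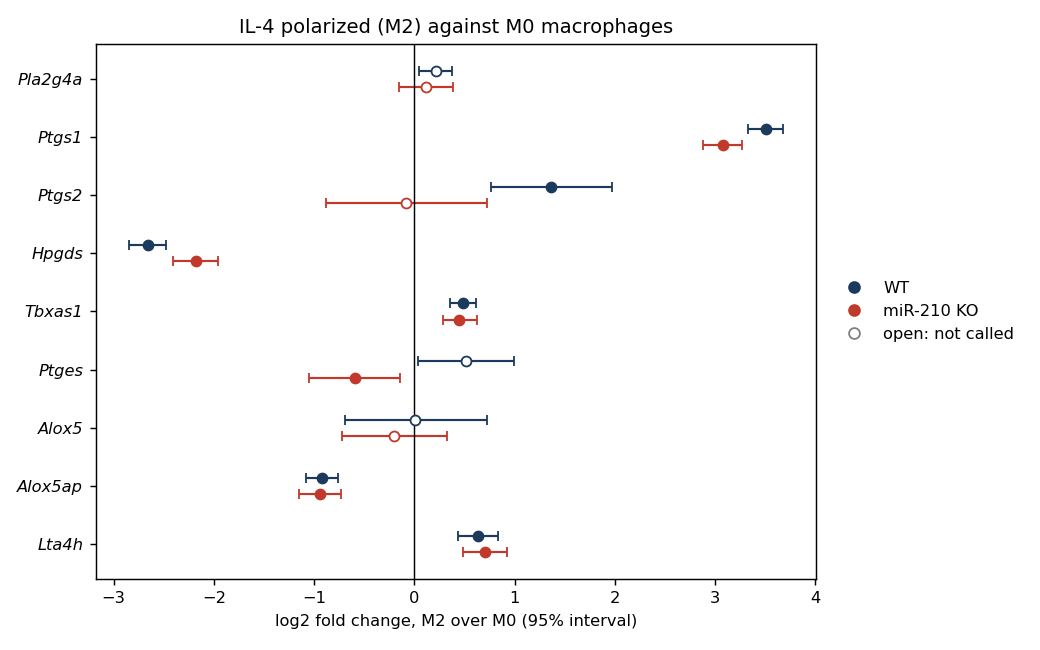
Log2 fold change of M2 over M0 for the 9 tested eicosanoid synthesis genes in WT and miR-210 KO, with 95% intervals from the edgeR fit. Filled points passed the test. Ptgs1 lies at 3.51 and 3.08 and Hpgds at -2.66 and -2.18, while Ptgs2 and Ptges differ in position between the genotypes with wide intervals.

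In the 5-lipoxygenase arm Alox5ap fell and Lta4h rose with IL-4, and Alox5 did not pass the test. Alox5 (chr6:116387032-116438139, minus strand), the 5-lipoxygenase itself, was low, with 1.91, 5.47 and 2.94 CPM in WT M0, 3.67, 5.04 and 3.29 in KO M0, 4.48, 2.95 and 3.22 in WT M2 and 3.06, 3.56 and 3.88 in KO M2. The 4 groups overlapped throughout. Its log2 fold change with IL-4 was 0.01 (95% interval -0.69 to 0.72) in WT and -0.20 (-0.72 to 0.33) in miR-210 KO. At between 15 and 53 counts in a library, changes within these intervals remain compatible with the data.

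Alox5ap (chr5:149196003-149227762, plus strand), which presents arachidonic acid to 5-lipoxygenase, fell. WT libraries held 182, 176 and 201 CPM in M0 and 98.9, 104 and 91.6 in M2, and KO libraries 218, 174 and 202 in M0 and 110, 105 and 94.4 in M2. All M2 libraries were below all M0 libraries and the genotypes overlapped in both states. The fall was 1.89-fold in WT (log2 -0.92, SE 0.07, adjusted p = 2.2e-07) and 1.92-fold in miR-210 KO (log2 -0.94, SE 0.10, adjusted p = 6.8e-06).

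Lta4h (chr10:93289210-93320749, plus strand), the enzyme that makes leukotriene B4, rose. Its levels were 32, 29.6 and 31.4 CPM in WT M0, 48.2, 43.2 and 52.6 in WT M2, 32.1, 31.2 and 26 in KO M0 and 46.7, 51.2 and 46.7 in KO M2. The states did not overlap in either genotype and the genotypes overlapped in both states. The rise was 1.55-fold in WT (log2 0.63, SE 0.09, adjusted p = 5.1e-05) and 1.62-fold in miR-210 KO (log2 0.70, SE 0.10, adjusted p = 0.00014).

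Alox15 (chr11:70234970-70242858, minus strand), the 12/15-lipoxygenase, is known as a gene that IL-4 induces in other macrophages and in human monocytes. Here it had 0, 2 and 0 counts in the unstimulated WT libraries, 1, 0 and 0 in the IL-4-treated ones and 0 in all 6 KO libraries, and it was not tested. A count of 0 allows up to 3 counts, or between 0.286 and 0.382 CPM depending on the library, and this limit covers counting error only. No IL-4 response of Alox15 was detectable at this depth while Arg1, Retnla and Chil3 responded in the same libraries.

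The genotype comparison asks whether these genes differ between miR-210 KO and WT within a state. Each group has its own batch, so that a difference could not be assigned to the deletion alone. In M0, KO and WT differed by the test in 0 of 9 genes, beside 0.461% of 14089 genes (0.22% higher and 0.241% lower in KO). Groups did not overlap for 3 of the 9 (Ptgs1, Ptges and Pla2g4a, all higher in KO), beside 14.4% of all genes tested, and 2 of them (Ptgs1 and Ptges) had an unadjusted p under 0.05, beside 10% of all genes. In M2, 0 of 9 were called beside 0.98% of 13980 genes (0.408% higher and 0.572% lower), and groups did not overlap for 3 (Ptgs2 and Tbxas1 lower and Hpgds higher in KO), beside 16% of all genes. An unadjusted p under 0.05 was reached by 2 of these (Ptgs2 and Hpgds), beside 10.7% of all genes. The log2 differences of the 6 other tested genes lay between -0.17 and 0.49 in M0 and between -0.22 and 0.08 in M2. The DESeq2 Wald test also called 0 of the set in either state. Other settings gave calls: with no filter on low counts Ptges was called in M0 and Ptgs2 and Hpgds in M2, and with all 12 libraries in 1 fit Ptgs1 was called in M0 (adjusted p = 0.048).

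**Figure D3:**
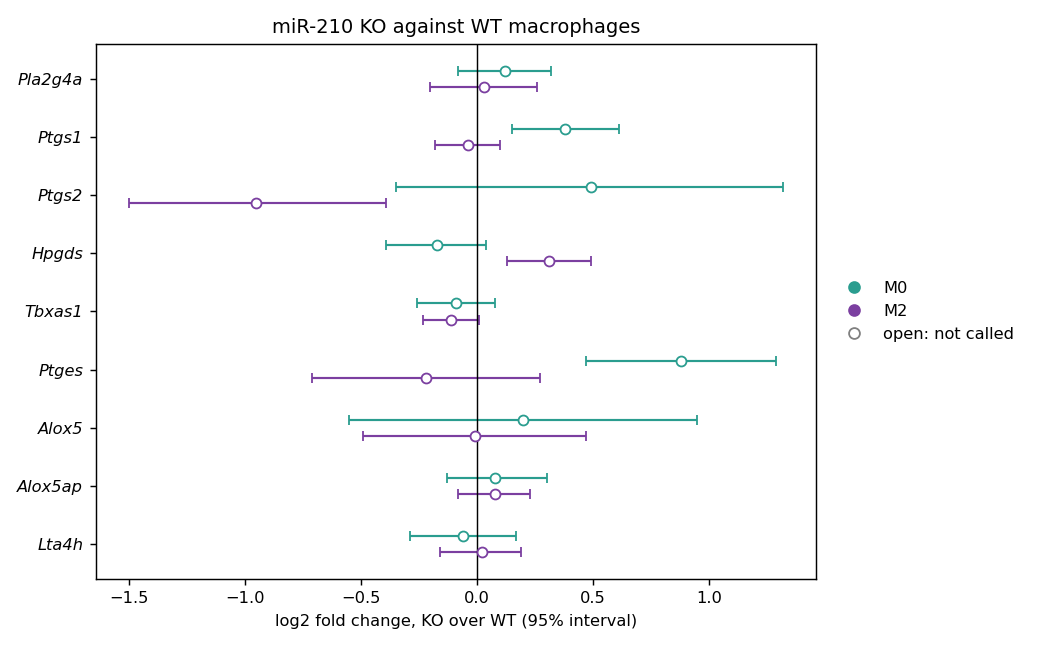
Log2 fold change of miR-210 KO over WT for the 9 tested eicosanoid synthesis genes in M0 and M2 macrophages, with 95% intervals from the edgeR fit. All points are open because no gene passed the test. The intervals of Ptgs1 and Ptges in M0 and of Ptgs2 and Hpgds in M2 do not reach 0.

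Whether the IL-4 response differed by genotype was tested as an interaction over all 12 libraries, the response in miR-210 KO minus that in WT. None of the 9 genes passed by edgeR, and 4 had an unadjusted p under 0.05. Of all 14825 genes 0% passed, 8.95% (1327) had an unadjusted p under 0.05, and the DESeq2 Wald test called 74. Ptgs1 (log2 -0.42, 95% interval -0.67 to -0.18, adjusted p = 0.22), Ptges (-1.11, -1.77 to -0.44, adjusted p = 0.23), Hpgds (0.48, 0.19 to 0.77, adjusted p = 0.24) and Ptgs2 (-1.44, -2.53 to -0.35, adjusted p = 0.36) had unadjusted p-values from 0.0021 to 0.013. For Ptgs2 the value was -0.82 without the third KO M0 library. The other 5 lay between -0.21 and 0.07. The response comparisons and the genotype comparisons share their libraries, so that these values restate the same 12 levels and are not separate evidence.

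The order of the genes by level was read per kilobase, and it depended on the length used. With all exons of a gene merged, Hpgds led in WT M0 at 59.8 ± 1.4 CPM per kilobase (SD, n = 3), followed by Alox5ap (48.3 ± 3.41), Tbxas1 (17.5 ± 0.41), Ptgs1 (4.91 ± 0.295), Pla2g4a (4.88 ± 0.112) and Lta4h (2.83 ± 0.113), of which only Ptgs1 and Pla2g4a overlapped. Ptges (0.982 ± 0.088), Alox5 (0.837 ± 0.446) and Ptgs2 (0.557 ± 0.0192) followed, each overlapping its neighbour. In WT M2 Ptgs1 led at 55.6 ± 3.32, ahead of Alox5ap (25.4 ± 1.57) and Tbxas1 (24.3 ± 0.132), which overlapped, and Hpgds was the fourth at 9.4 ± 1.15. With the length of the canonical transcript, an alternative added after seeing the data, Tbxas1 (2020 against 12631 bases) and Lta4h (2053 against 10972) moved up. Tbxas1 was then the second in WT M0 at 109 behind Hpgds at 123, and the first in WT M2 at 152, ahead of Ptgs1 at 75.4. By both lengths Hpgds had the highest mean in M0 in both genotypes. In KO M0 it overlapped the next gene, which was Alox5ap with merged exons and Tbxas1 with the canonical transcript (109 ± 14.4 for Hpgds against 103 ± 5.09). Ptgs1 rose from rank 4 or 6 to rank 1 or 2, and Ptgs2, Ptges and Alox5 stayed below the other 6 genes with counts.

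**Figure D4:**
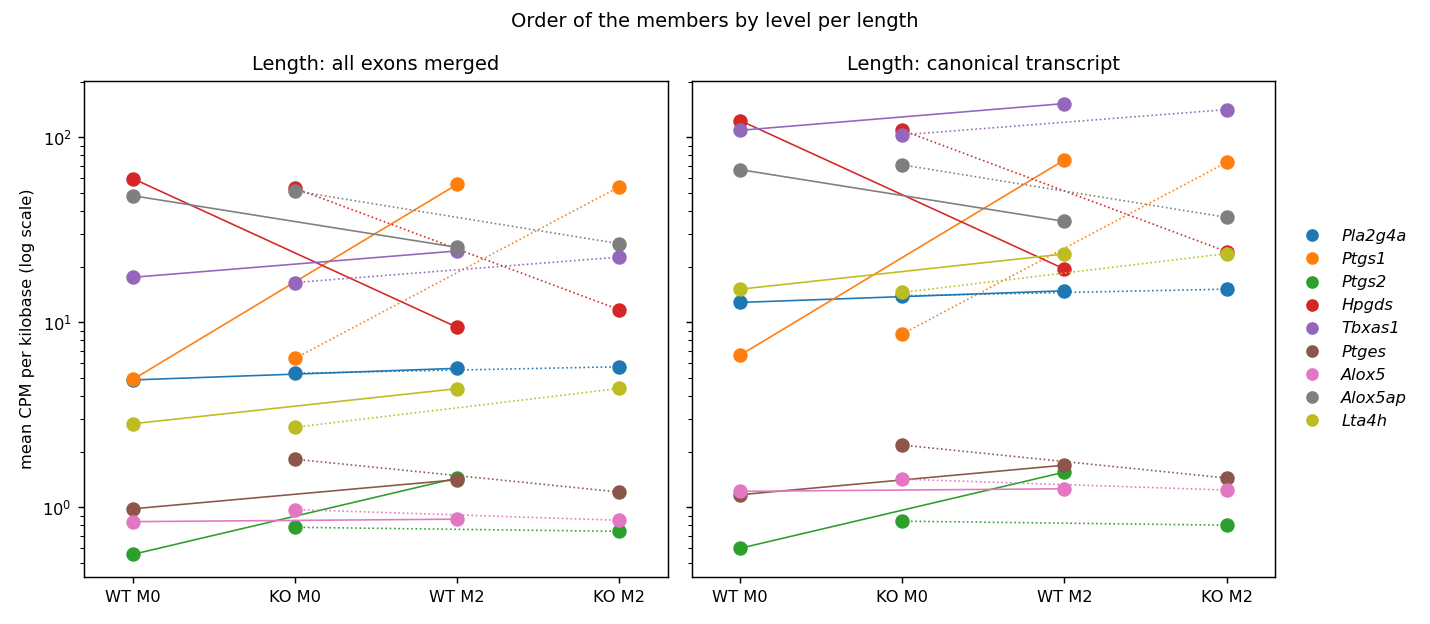
Mean CPM per kilobase of the 9 expressed genes in the 4 groups on a log axis, with all exons merged (left) and with the canonical transcript (right) as the length. Solid lines join WT M0 to WT M2 and dotted lines KO M0 to KO M2. Hpgds starts at the top and falls, Ptgs1 rises past it, and Tbxas1 is 17.5 or 109 in WT M0 depending on the length.

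The wider eicosanoid pathway, 90 further genes in 7 lists, held 25 genes that were higher and 12 that were lower with IL-4 among 58 tested in WT, beside the 43% called over all genes. In miR-210 KO 20 were higher and 13 lower among 57, beside 33.8%. The medians over the tested pathway genes were 0.18 in both genotypes. In the steps upstream of the cyclooxygenases, 9 of 21 tested genes of arachidonate release and reacylation were higher and 2 lower in WT, and 9 of 20 were higher and 3 lower in miR-210 KO. Mgll, monoacylglycerol lipase, which can free arachidonic acid from 2-arachidonoylglycerol, rose from at most 9 counts in any M0 library to between 38 and 63 in the M2 libraries (log2 3.55 in WT and 3.88 in miR-210 KO). Without the second WT M0 library the WT value was 4.58, and without the third 3.04. Daglb, a diacylglycerol lipase that makes the substrate of Mgll, rose by 1.82 and 1.75, and the secreted phospholipase Pla2g5 by 2.36 and 2.67.

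Of 10 other genes of prostanoid synthesis and breakdown 3 were higher and 2 lower in WT, and 1 higher and 3 lower in miR-210 KO, beside the same 43% and 33.8% of all genes, which also stand beside the counts of the lists that follow. Hpgd, which inactivates prostaglandins, fell by 2.47 in WT and 1.69 in miR-210 KO on the log2 scale. Prxl2b, a prostaglandin F synthase, fell by 0.85 and 0.59. The KO call of Prxl2b was lost with the DESeq2 Wald test (adjusted p = 0.085) and when the first or the third KO M2 library was left out. Of 11 other lipoxygenase and leukotriene conversion genes 6 were higher and 1 lower in WT, and 4 higher and 2 lower in miR-210 KO. Cyp4f16 fell by 1.10 and 1.11 while Cyp4f18, a leukotriene B4 hydroxylase of myeloid cells, rose by 1.86 and 1.89. All 3 tested epoxygenase and epoxide hydrolase genes were higher in WT and 2 of them in miR-210 KO, among which Ephx1, an epoxide hydrolase, rose by 1.84 and 2.16. Ptgds, the other prostaglandin D synthase, had at most 1 count in a library.

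Of 6 leukotriene and lipoxin receptors tested 2 were higher and 3 lower in each genotype, and of 4 prostanoid receptors 2 were higher and 2 lower in WT, and 1 higher and 1 lower in miR-210 KO, beside 43% and 33.8% of all genes called in WT and miR-210 KO. Of 3 eicosanoid transporters 2 were lower in WT, and 1 was higher and 1 lower in miR-210 KO. Ltb4r1, the high-affinity receptor of leukotriene B4, rose from between 0.779 and 1.42 CPM in the M0 libraries to between 13.8 and 19.1 in the M2 libraries (log2 3.86 in WT, adjusted p = 1.6e-09, and 3.99 in miR-210 KO, adjusted p = 1.4e-08). Fpr2, a formyl peptide and lipoxin A4 receptor, fell from between 44.3 and 53.2 CPM to between 2.11 and 5.45 (log2 -3.78 and -3.94). Cysltr1, a cysteinyl leukotriene receptor, fell by 1.35 and 1.29, and Ptger4, a prostaglandin E2 receptor, by 0.80 and 0.81. Cysltr2, another cysteinyl leukotriene receptor, went the other way, from between 4.56 and 8.39 CPM in M0 to between 9.8 and 10.7 in M2. The thromboxane receptor Tbxa2r had 0 counts in all 12 libraries while Tbxas1, which makes its ligand, was among the highest genes of the set per kilobase.

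**Figure D5:**
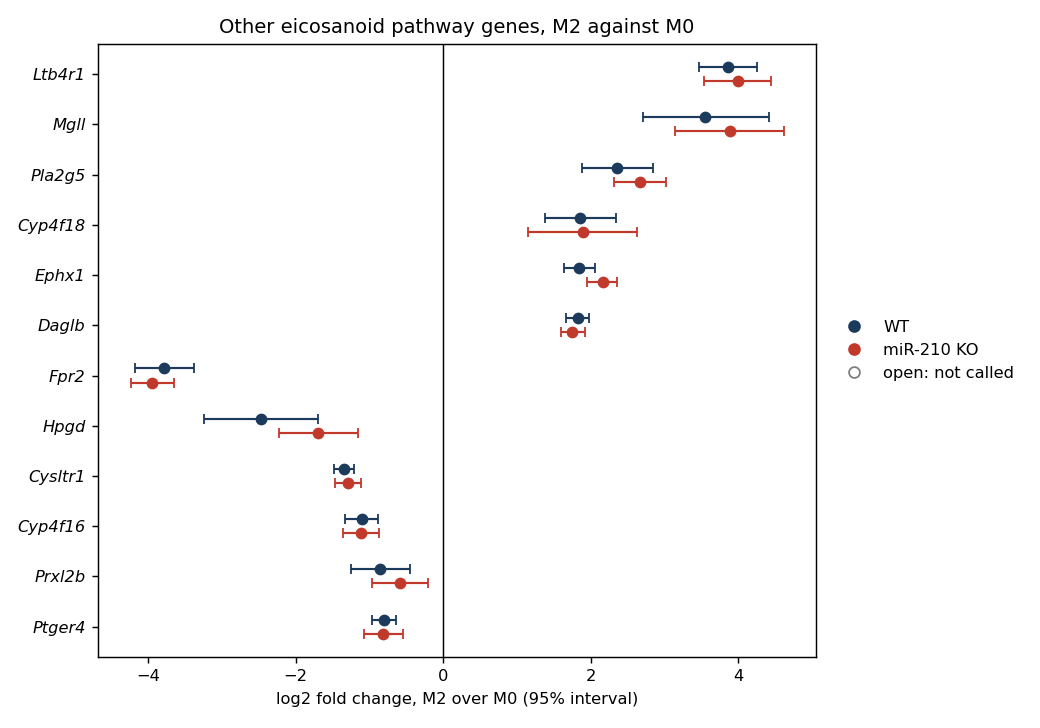
Log2 fold change of M2 over M0 in WT and miR-210 KO for the 6 largest rises and 6 largest falls among the other pathway genes that were called in both genotypes without overlap, with 95% intervals from the edgeR fit. The values run from 3.99 for Ltb4r1 to -3.94 for Fpr2, and the intervals of the 2 genotypes overlap for each of the 12 genes.

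Between the genotypes, 1 of the 55 other pathway genes tested was called in M0 and 1 of 57 in M2, beside 0.461% and 0.98% of all genes tested. Ptgir, the prostacyclin receptor, was higher in KO M0 (106, 76.9 and 88.1 CPM against 62.8, 46.1 and 55.4 in WT, log2 0.72, adjusted p = 0.044). The groups did not overlap, and the call was lost when any of 4 of the 6 libraries was left out. With IL-4 Ptgir reached between 141 and 170 CPM in both genotypes, which overlapped in M2. Pla2g15, a lysosomal phospholipase, was higher in KO M2 (362, 361 and 331 CPM against 282, 308 and 285, log2 0.27, adjusted p = 0.03), just past the fold limit, and that call too was lost on leaving out any of 4 of the 6 libraries. The prostacyclin synthase Ptgis had at most 6 counts in a library.

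Markers of other cells were read beside these changes. Zbtb46, the 1 dendritic cell marker tested, rose in M2 (from at most 6 counts to between 88 and 143). The summed level of the 5 dendritic markers lay between 0.31 and 0.952 CPM in M0 and between 10.1 and 18.1 in M2, through Zbtb46. Flt3, Cd209a and Siglech had at most 2 counts in a library and Xcr1 at most 6. The 5 eosinophil markers summed to between 1.71 and 3.55 CPM in M0 and between 15.7 and 17.9 in M2, through Siglecf and Ccr3, while Epx, Prg2 and Il5ra had at most 2 counts in a library. The 6 platelet markers summed to between 348 and 426 CPM in WT M0 and between 435 and 523 in KO M0, nearly all of it Pf4, which macrophages also express. Ppbp, another platelet gene, had 18, 40 and 21 counts in the unstimulated WT libraries against 65, 58 and 73 in KO (adjusted p = 0.095). The 8 neutrophil markers summed to between 0.812 and 2.92 CPM in WT M0, 1.2 and 2 in KO M0, 2.71 and 5.69 in WT M2 and 1.13 and 1.99 in KO M2. S100a8, the 1 neutrophil marker tested, rose in WT M2 (log2 2.04, adjusted p = 0.00023) and stood at -0.19 in miR-210 KO, which did not pass, nor did the difference between the responses (-2.22, adjusted p = 0.12). The 5 fibroblast markers summed to between 0.89 and 1.24 CPM in WT M0, 1.78 and 2.29 in KO M0 and at most 0.877 in M2, and the lymphocyte markers to at most 0.445. The part of these markers in the levels of Ptgs1, Tbxas1 or any other eicosanoid synthesis gene was not tested.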

How the data were processed

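RNA of 12 macrophage cultures was sequenced as stranded paired-end libraries after removal of ribosomal RNA. The authors trimmed the reads with Trimmomatic, removed duplicates with Picard, aligned to GRCm39 with STAR and deposited raw counts per gene from stranded featureCounts, in 4 tables for the 4 pairs of groups. The other values the authors deposited are a signal, the counts divided by size factors set within a pair, used here only as an alternative for levels. Removal of duplicates can lower the counts of abundant genes.

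Libraries were assigned to groups by column names, whose numbers are not tied to samples. Pairs of groups (6 libraries) and the interaction (12) were fitted over all genes with edgeR 4.0.16 (TMM, filterByExpr, quasi-likelihood test, Benjamini-Hochberg adjustment), and intervals come from the F statistic. Alternatives were DESeq2 1.42.0, its size factors in edgeR, no filter, stricter limits on fold or average count, 1 fit of 12 libraries and each library left out. Totals were 7930525 to 10167695 counts, and replicates differed beyond counting noise. On simulated counts edgeR recovered 81% of 100 genes changed 2-fold for KO against WT in M0 (14310 genes fitted) and 67% for the interaction (14767). The simulation used each gene's mean over all 12 libraries and a spread pooled over the 4 groups. Its changed genes were drawn from all genes that passed the filter. These shares therefore do not give the power for genes with few counts or for the spread within M0 alone. The genes and pathway lists were chosen with earlier results of these data known. Beside them the text names Mir210, 4 IL-4 markers, pathway genes called between genotypes, the 6 largest rises and 6 largest falls with IL-4 that were called without overlap in both genotypes, and the 5 genes most like Ptgs1, the member with the largest IL-4 change in WT, and Ptges, the one with the smallest genotype p in M0. Of these, 1 result is not reported here. Tbxa2r, Ptgds, Ptgis, Cysltr2, Ptges2, Ptges3 and the markers were named after their values were seen. Annotation was GENCODE M39 (GRCm39), which matched 56323 of 56941 identifiers.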

Additional observations from a re-analysis of the deposited data

Results flagged for a closer look

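Ptges was singled out because every WT library was higher with IL-4 than without and every KO library lower. The interaction was -1.11 on the log2 scale (SE 0.31, unadjusted p = 0.0026, adjusted p = 0.23 in edgeR's quasi-likelihood test on 12 libraries), so the difference between the genotypes did not pass the test. Over the 12 fits that left out 1 library each it lay between -1.33 and -0.86, with no call in any of them, and it was called with no filter on low counts (adjusted p = 0.015). It rests on between 32 and 82 counts in a library.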

How the results depend on the processing

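The number of eicosanoid synthesis genes called stayed within 1.5 times of the reported one in most settings. With no filter on low counts it was 1 instead of 0 for KO against WT in M0 (Ptges), 2 instead of 0 in M2 (Ptgs2 and Hpgds) and 3 instead of 0 for the interaction (Ptgs2, Ptges and Hpgds). With all 12 libraries in 1 fit it was 1 in M0 (Ptgs1). When a change of over 1 on the log2 scale was required it was 3 instead of 6 for M2 against M0 in WT (Ptgs1, Ptgs2 and Hpgds) and 2 instead of 6 in miR-210 KO (Ptgs1 and Hpgds), by the construction of that rule. For the other settings the cause was not tested. Leaving out 1 library gave 0 in M0, between 0 and 2 in M2 (2 without the first WT M2 library), between 6 and 7 for M2 against M0 in WT, between 5 and 6 in miR-210 KO and between 0 and 1 for the interaction (Hpgds without the second KO M0 library). No call reversed its direction, and the deposited normalized values moved no ratio of group means by more than 1 SD of the replicates. Ptgs1, Tbxas1 and Lta4h (higher) and Hpgds and Alox5ap (lower) were called in both genotypes in every fit that left out 1 library.

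Over all genes, 65 were called for KO against WT in M0, with 209 by DESeq2, 532 with no filter, 27 when a log2 change of over 1 was required, 248 in 1 fit of 12 libraries and between 20 and 302 when 1 library was left out. In M2 the number was 137, with 360, 40 and 60 under the last 3 of these settings and between 53 and 215 with 1 library left out. The log2 limit gave 2042 instead of 6137 genes for M2 against M0 in WT and 1800 instead of 4842 in miR-210 KO. The interaction, with 0 genes, had 74 by DESeq2, 341 with no filter and up to 77 with 1 library left out. No paired analysis was possible because the library numbers in the count tables are not tied to samples and the sample names share no replicate number between groups. Ptgs2, Ptges and Alox5 had under 100 counts in every library, which limits what could be detected for them.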
